A study of Mus musculus with 6 samples.

Results

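The genes described here are the matrix metalloproteases (Mmp), the ADAMTS proteases and their ADAMTS-like relatives (Adamts, Adamtsl) and the tissue inhibitors of metalloproteases (Timp) in the 2 compartments of the embryonic mouse bladder. They were taken by name: every gene with a probe set of a single symbol that reads Mmp, Adamts, Adamtsl or Timp and a number. This gave 42 of 18193 measured genes, namely 18 Mmp, 15 Adamts, 5 Adamtsl and 4 Timp genes, read by 78 probe sets. All arrays came from wild-type FVB/N embryos at embryonic day 13 (Theiler stage 21), whose sex the labels give as unknown. Bladders were cut off above the ureters and kept for 20 minutes in 20 µM EDTA, which chelates the divalent cations that hold epithelium to its surroundings, and a needle was used to part mesenchyme from urothelium. There were 3 mesenchyme arrays (replicates 1, 2 and 4) and 3 urothelium arrays (replicates 5, 7 and 8), none pooled by their labels, hybridised to Affymetrix MOE430 chips after 2 rounds of amplification. Nothing in the labels ties the arrays to separate litters or embryos, so the p-values below cover the spread between these arrays, and their small number limits the precision.

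Matrix metalloproteases are zinc enzymes, secreted or tethered to the cell membrane, that are made as inactive precursors and cut collagens, laminins and other matrix proteins once activated. ADAMTS enzymes belong to a related group and carry thrombospondin repeats that bind matrix; several cut the large proteoglycans versican and aggrecan, and others trim the propeptides of fibrillar collagens. ADAMTS-like proteins share the repeats but lack the catalytic domain. TIMPs are small secreted proteins that plug the active site of these enzymes, and Timp3, which sits on the matrix, also inhibits ADAMTS enzymes. In developing hollow organs, turnover of matrix by such enzymes accompanies growth of the mesenchyme and remodelling of the basement membrane beneath the epithelium.

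Most of the genes that differed were higher in mesenchyme. This held for proteases, more so for Adamts than for Mmp genes, and for the 2 inhibitors past the test. Of the 42 genes, 14 were higher in mesenchyme and 2 in urothelium, and 26 were not past the test (limma, Benjamini-Hochberg adjusted p under 0.05 over all 18193 genes). Together that is 38.1% of the 42, against 14.7% of all genes; over all genes 8.99% were higher in mesenchyme and 5.75% in urothelium. The genes higher in mesenchyme were Mmp2, Mmp9, Mmp16, Mmp17, Adamts3, Adamts4, Adamts8, Adamts9, Adamts12, Adamts15, Adamts20, Adamtsl1, Timp1 and Timp3. Those higher in urothelium were Adamts18 and Mmp11. The median log2 difference, urothelium minus mesenchyme on the log2(signal + 45) scale, was −0.77 for the 42 genes and −0.11 for all genes. Without mesenchyme 1 and urothelium 5 the counts were 15 and 2.

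**Figure D1:**
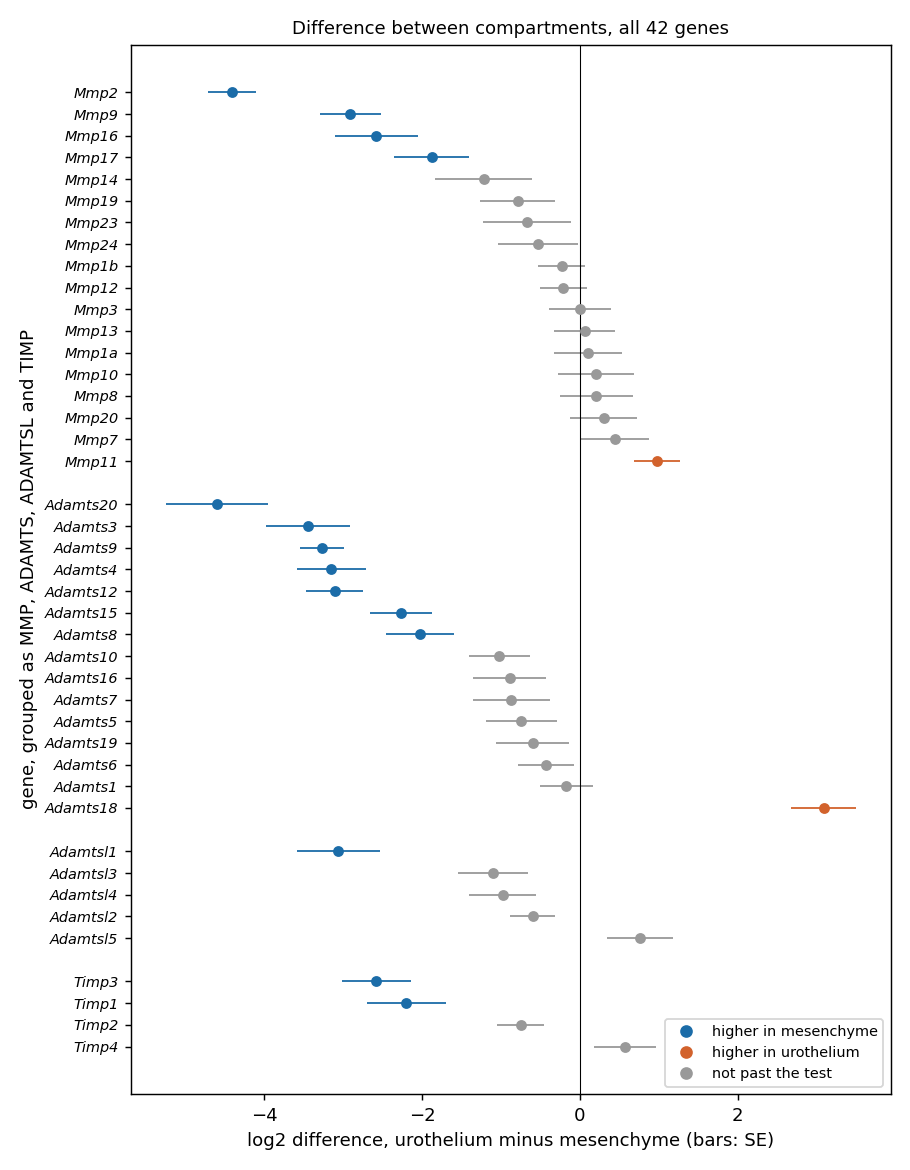
Log2 difference between compartments (x axis, urothelium minus mesenchyme, on the log2(signal + 45) scale, bars are the SE) for each of the 42 genes, grouped by family. The 14 genes higher in mesenchyme lie to the left (blue), Mmp11 and Adamts18 to the right (orange), and the 26 genes in grey did not pass the test.

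The compartments matched their labels. All 8 mesenchymal markers were higher in mesenchyme and all 8 epithelial markers in urothelium; the summed signal of the epithelial list was 8873 to 12061 on mesenchyme arrays and 363262 to 399477 on urothelium arrays, and that of the mesenchymal list 171864 to 214563 and 8349 to 10946. Mesenchyme 1 and urothelium 5 had the highest 3′ to 5′ beta-actin ratios, 8.4 and 8.6, against 2.29 to 4.89 on the others, but by the Gapdh ratio only urothelium 5 was high, at 26.28 against 9.77 to 15.73, and mesenchyme 1 had 11.48. Mesenchyme 1 had the highest median signal (239.7, against 131.6 to 192.4). Centring the arrays on their medians moved the median difference of all genes from −0.11 to 0.28 and the counts over all genes from 1636 in mesenchyme and 1047 in urothelium to 1198 and 1708, while the counts among the 42 genes were 14 and 2 again. In such bulk tissue, fewer cells of a type and less RNA per cell cannot be told apart.

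Both gelatinases, which cut denatured collagen and the type IV collagen of basement membranes, were higher in mesenchyme. Mmp2, the gelatinase typical of stromal cells, had signals of 31393, 33423 and 30244 on mesenchyme 1, 2 and 4 and 1910, 910.9 and 1713 on urothelium 5, 7 and 8. The mesenchyme arrays were all far above the urothelium arrays, and the mean signal was 21.0 times higher (31687 ± 1610 against 1511 ± 529.1, SD, n = 3 each). The log2 difference was −4.41 ± 0.31 (SE; limma adjusted p = 6.41e-06), and the other Mmp2 probe set gave −5.09. Mmp9, the gelatinase also made by macrophages, neutrophils and bone-resorbing cells, read 1629, 1602 and 1180 in mesenchyme and 208.8, 150.9 and 116.5 in urothelium. Its groups did not overlap either, and the log2 difference was −2.91 ± 0.39 (limma adjusted p = 0.000448), with −2.83 from its other probe set. Over all genes, 30.2% had no overlap between compartments.

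Markers of several cell types, those named as sources of Mmp9 among them, were read beside it. In the macrophage, endothelial, smooth muscle and mesenchymal lists most or all markers were higher in mesenchyme. No neutrophil or cartilage and bone marker passed the test. Of 8 macrophage markers 5 were higher in mesenchyme and 0 in urothelium, with summed signals of 9995 to 14359 in mesenchyme and 1375 to 1635 in urothelium. All 8 endothelial markers were higher in mesenchyme, with sums of 19439 to 23295 and 763 to 857. Of 5 neutrophil markers none passed limma's test, by adjusted or unadjusted p (0 with an unadjusted p under 0.05), and their sums were 333 to 837 and 444 to 500. Of 6 measured cartilage and bone markers, among them Acp5 of bone-resorbing cells (−0.59, limma adjusted p = 0.455), 0 passed by adjusted p and 1 had an unadjusted p under 0.05, with sums of 1709 to 2956 and 1174 to 2192. Smooth muscle markers were higher in mesenchyme for 5 of 6, with sums of 68666 to 87533 and 3136 to 3635. No marker read exactly 0 on any array. The part of these cells in the signal of Mmp9, or of any other gene described here, was not tested.

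Among the membrane-type enzymes, which work at the cell surface, Mmp16 and Mmp17 were higher in mesenchyme and Mmp14 and Mmp24 were not past the test. Mmp16 read 2174, 1814 and 1954 in mesenchyme and 95.5, 637.2 and 354.6 in urothelium, a log2 difference of −2.58 ± 0.53 (limma adjusted p = 0.00696). The mesenchyme arrays lay close together and the urothelium arrays were spread widely below them. Its other 3 probe sets gave −0.81, −0.21 and −0.91 and did not pass, and the mean of the 4 was −1.13 (limma adjusted p = 0.0479). Mmp17, which is held by a lipid anchor, read 405.1, 795.3 and 803.7 against 77.8, 163.6 and 207.1 (−1.88 ± 0.47, limma adjusted p = 0.0194). Its groups did not overlap, but its call was lost without mesenchyme 2 (−1.73), mesenchyme 4 (−1.72), urothelium 5 (−1.58) or urothelium 7 (−1.96).

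Mmp14, the enzyme that activates the precursor of Mmp2 at the cell surface, gave a different picture from Mmp2. It read 527.5, 1655 and 725.0 in mesenchyme and 119.7, 430.6 and 710.4 in urothelium, so that urothelium 8 was above mesenchyme 1. The log2 difference of −1.22 ± 0.61 was not past the test (limma adjusted p = 0.251), and the other probe sets of Mmp14 gave −1.34 and −0.61. With array weights the same gene was past the test (−1.28), but these weights raised the count past the test over all genes from 2683 to 5107. Mmp24, an enzyme known best from neurons, read 720.9, 262.8 and 198.6 against 153.2, 306.2 and 226.8 (−0.53 ± 0.51), with overlap between compartments. Its high value came from mesenchyme 1, and without mesenchyme 1 and urothelium 5 the difference was 0.17.

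Mmp11 (stromelysin-3), which is activated inside the cell by furin rather than outside it, was the single metalloprotease of the Mmp family higher in urothelium. It read 1909, 2838 and 3017 in mesenchyme and 4064, 5600 and 5605 in urothelium. Every urothelium array was above every mesenchyme array, and the mean was 1.97 times higher (log2 difference 0.98 ± 0.29, limma adjusted p = 0.0479). The call was lost without mesenchyme 1 (0.77), mesenchyme 2 (1.05), mesenchyme 4 (1.10), urothelium 7 (0.90) or urothelium 8 (0.90), without the intensity trend, and when every probe set was tested by itself. Mmp23, a small enzyme without the usual tail domain, read 361.3, 1789 and 1826 in mesenchyme and 614.6, 773.5 and 597.9 in urothelium, with mesenchyme 1 below all the urothelium arrays (−0.67 ± 0.56, limma adjusted p = 0.537). Leaving out mesenchyme 1 brought it past the test (−1.40), as did leaving out both mesenchyme 1 and urothelium 5 (−1.35) and the use of array weights (−1.13). Mmp19 read 171.7, 74.8 and 68.7 against 10.8, 18.2 and 115.4 (−0.79 ± 0.47, limma adjusted p = 0.342).

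**Figure D2:**
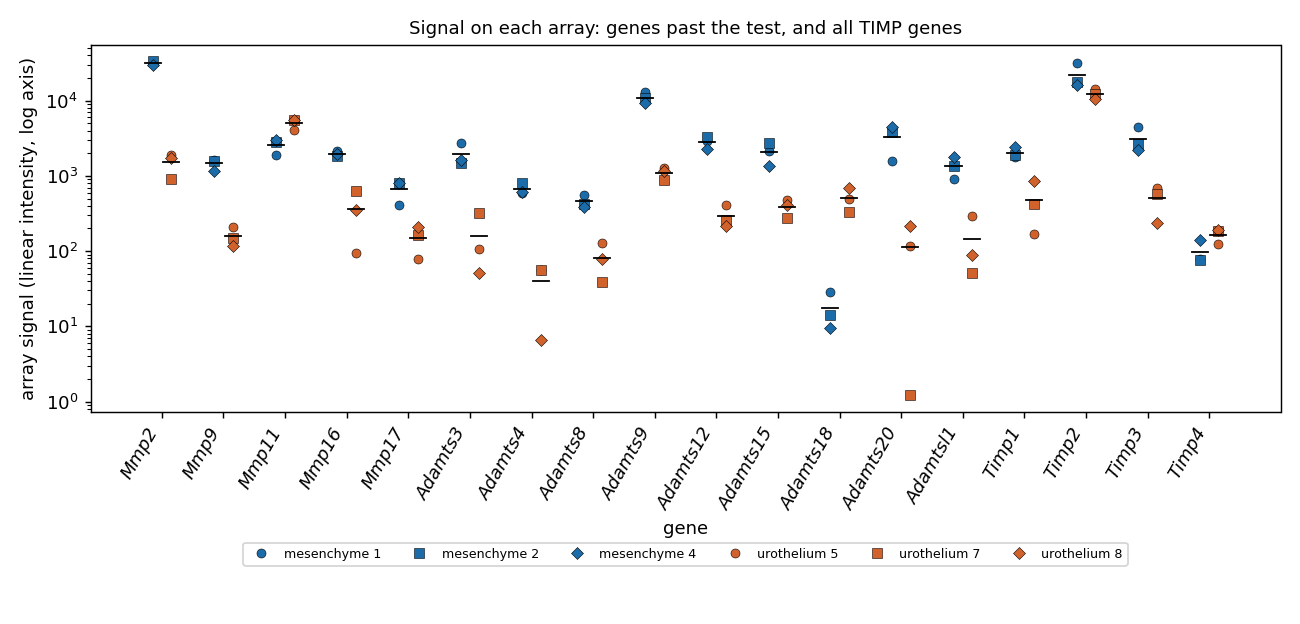
Array signal (y axis, log scale) on each of 3 mesenchyme (blue) and 3 urothelium arrays (orange) for the 16 genes past the test and all TIMP genes; the bars are group means. Mmp2 lies between 30244 and 33423 on mesenchyme arrays and at 1910 or below on urothelium arrays, while the groups of Timp4 overlap.

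The other 9 metalloproteases sit side by side on mouse chromosome 9 and were dim in both compartments. In the RefSeq gene table (GRCm38.p6) the protein-coding genes from Mmp13 to Mmp7 are Mmp13, Mmp12, Mmp1b, Mmp3, Mmp1a, Mmp10, Mmp8, Mmp27, Mmp20 and Mmp7, with no other between them, and 9 of these 10 were measured. They include the collagenases, which cut fibrillar collagen, the stromelysins Mmp3 and Mmp10, the matrilysin Mmp7, the macrophage elastase Mmp12 and the enamel protease Mmp20. None of the 9 passed limma's test (0 with an unadjusted p under 0.05), all 9 overlapped between compartments, and their log2 differences ran from −0.23 to 0.44. Mean signals over all 6 arrays were 16.0 to 102.5, and the highest value on any array was 187.7. These genes were grouped by position after their values had been seen.

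Mmp8, the brightest of them, read 187.7, 84.1 and 26.7 in mesenchyme and 78.7, 124.5 and 113.3 in urothelium. Mmp10 read 73.4, 176.4 and 14.3 against 107.8, 60.4 and 100.1, and Mmp20 133.8, 71.8 and 24.6 against 146.5, 82.5 and 66.6. The compartments overlapped for all 3 genes, and the lowest value of each was on mesenchyme 4. Mmp7, made by many adult glandular epithelia, read 119.7, 54.0 and 35.4 against 129.8, 46.1 and 159.3, and Mmp3 124.0, 56.5 and 53.0 against 69.2, 117.9 and 45.5. Mmp1a read 149.7, 23.9 and 23.4 against 48.2, 62.8 and 66.6, and Mmp12 53.0, 9.59 and 6.54 against 6.10, 12.9 and 15.8. Mmp13 ran from 1.10 to 60.1 and Mmp1b from 2.95 to 46.6 over the 6 arrays. For 8 of the 9 genes mesenchyme 1 was the highest mesenchyme array. Among all 6340 genes with a mean signal under 200 mesenchyme 1 was the highest mesenchyme array for 58.5%, and the part of that array in these values was not tested. Of the 42 genes, 15 had a mean signal under 200 and 0 of them passed limma's test.

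**Figure D3:**
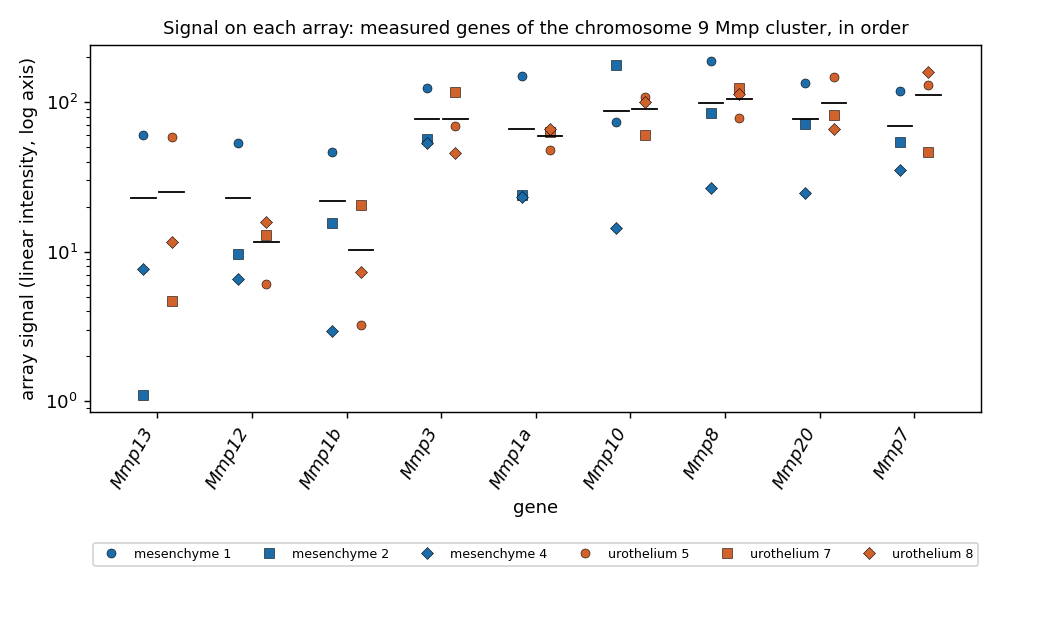
Array signal (y axis, log scale) on each array for the 9 measured genes of the chromosome 9 Mmp cluster, in chromosomal order; the bars are group means. No value exceeds 187.7, and mesenchyme 1 (blue circle) is the highest mesenchyme array for every gene but Mmp10.

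Promoter letters were read from RefSeq promoter windows of GRCm38.p6, which were found for 27 of the 42 genes. The 250 bases before each start were searched on both strands for 3 motifs. The first was the AP-1 site TGAGTCA, which reads TGACTCA on the other strand. The second was the TATA element TATAAA, which reads TTTATA from the other side. The third was the GC box GGGCGG, with CCGCCC as its reverse complement. AP-1 is the Jun and Fos dimer through which growth factors and cytokines are known to induce several metalloprotease genes. The AP-1 letters were present in 7 of the 9 cluster genes and 0 of the 18 others with a window, and in 4.46% of all 32851 windows of this length. A gene was counted if any of its windows matched, and Mmp7, Mmp12 and Mmp23 had 2 windows each. Counted by window, the 27 genes had 30 windows, of which 7 (23.3%) held the AP-1 letters, 9 (30%) TATAAA and 15 (50%) a GC box. TATAAA was present in 7 of the 9 and in 2 of the 18 others, Adamts1 and Adamtsl2, against 12.4% of all windows. None of the 8 genes past the test that had a window held either motif, while 7 of these 8 held a GC box (32.7% of all windows) and 0 of the 9 cluster genes did. The GC box was also present in 8 of the 10 genes outside the cluster that had a window and did not pass the test. No window was found for Mmp2, Mmp9, Mmp16, Mmp17, Adamts4, Adamts8, Adamts15 or Adamtsl1, which passed the test, so these were not searched. Of the Mmp genes past the test only Mmp11 was searched. A match is a description of letters, not of a bound site, and the motifs and the stretches shown were chosen after the values were seen.

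The 100 bases before the start are shown for 5 cluster genes, to let the shared AP-1 and TATA letters be seen, and for Timp3, Timp1 and Mmp11, which differed between compartments. Each is written 5′ to 3′ in the direction of the gene, with matches to the 3 motifs in capitals. The stretches lie at chr9:7272414-7272513 (Mmp13), chr9:7464041-7464140 (Mmp1a), chr9:7445722-7445821 (Mmp3), chr9:7502242-7502341 (Mmp10), chr9:7691990-7692089 (Mmp7), chr10:86300312-86300411 (Timp3), chrX:20870066-20870165 (Timp1) and chr10:75932503-75932602 (Mmp11), the last on the minus strand and the others on the plus strand.
Mmp13: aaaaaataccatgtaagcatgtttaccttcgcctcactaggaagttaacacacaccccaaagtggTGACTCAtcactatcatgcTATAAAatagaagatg
Mmp1a: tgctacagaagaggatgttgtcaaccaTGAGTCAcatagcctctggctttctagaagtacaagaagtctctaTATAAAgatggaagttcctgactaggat
Mmp3: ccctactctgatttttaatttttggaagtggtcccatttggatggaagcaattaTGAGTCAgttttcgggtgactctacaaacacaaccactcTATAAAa
Mmp10: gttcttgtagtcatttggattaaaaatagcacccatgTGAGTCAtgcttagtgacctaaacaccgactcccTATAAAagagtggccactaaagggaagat
Mmp7: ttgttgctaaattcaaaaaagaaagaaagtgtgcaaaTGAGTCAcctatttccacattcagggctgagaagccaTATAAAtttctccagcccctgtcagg
Timp3: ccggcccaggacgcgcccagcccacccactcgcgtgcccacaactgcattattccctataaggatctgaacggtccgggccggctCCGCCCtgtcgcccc
Timp1: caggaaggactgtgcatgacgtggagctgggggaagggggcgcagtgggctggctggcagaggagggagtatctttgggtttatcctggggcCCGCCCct
Mmp11: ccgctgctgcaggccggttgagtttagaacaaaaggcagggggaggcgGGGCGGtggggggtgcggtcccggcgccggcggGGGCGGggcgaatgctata
In Mmp10 and Mmp7 the AP-1 letters begin 63 bases before the start and in Mmp1a 73, and the TATA letters begin 29, 26 and 28 bases before it. In Mmp13 both lie closer, at 35 and 16 bases, and in Mmp3 they begin 46 and 7 bases before the start. The AP-1 and TATA letters do not overlap in any of these stretches.

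Among ADAMTS genes 7 of 15 were higher in mesenchyme and 1 in urothelium, with a median log2 difference of −1.02. Over all genes the shares were 8.99% and 5.75%. Of the 7 enzymes that cut versican and aggrecan, 5 were higher in mesenchyme. Adamts9, which processes versican in embryonic tissues, was the brightest of these 5, with 12893, 10865 and 9338 in mesenchyme and 1256, 887.7 and 1162 in urothelium (−3.27 ± 0.28, limma adjusted p = 2.19e-05). Adamts20, its closest relative, read 1558, 3849 and 4505 against 117.5, 1.22 and 218.9, a log2 difference of −4.60 ± 0.65 (limma adjusted p = 0.000625). No urothelium array came near the lowest mesenchyme array of either gene, although the signals of Adamts20 varied more within each compartment.

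Adamts15 read 2123, 2715 and 1356 in mesenchyme and 474.1, 273.8 and 407.2 in urothelium (−2.27 ± 0.39, limma adjusted p = 0.00227). Adamts4, known as an aggrecanase of cartilage, read 601.1, 816.0 and 617.9 against 56.2, 56.2 and 6.51 (−3.15 ± 0.44, limma adjusted p = 0.000555). Adamts8 read 558.3, 427.6 and 386.6 against 129.2, 38.6 and 77.7 (−2.03 ± 0.43, limma adjusted p = 0.00839). The compartments did not overlap for these 3 genes; the call of Adamts8 was lost without urothelium 7 (−1.77).

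Adamts1 and Adamts5, the other versican-cutting enzymes, did not pass. Adamts1 was bright in both compartments, with 10963, 5258 and 5612 in mesenchyme and 8137, 5846 and 4721 in urothelium (−0.17 ± 0.34, limma adjusted p = 0.823), and both compartments were highest on the arrays with the highest beta-actin ratio, whose part was not tested. Its sign changed with arrays centred on their medians (0.21). Adamts5 read 736.8, 1968 and 2058 against 593.0, 1130 and 909.3 (−0.74 ± 0.45, limma adjusted p = 0.364), with mesenchyme 1 inside the urothelium range, and was past the test with array weights (−0.87).

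Adamts3, which trims procollagen and activates a lymphatic growth factor, was the only procollagen N-proteinase measured and was higher in mesenchyme. Its signals were 2710, 1467 and 1606 in mesenchyme and 105.3, 321.4 and 50.6 in urothelium (−3.45 ± 0.53, limma adjusted p = 0.00106). Adamts12, which cuts a cartilage matrix protein, read 2881, 3299 and 2310 against 404.5, 259.1 and 215.9 (−3.11 ± 0.36, limma adjusted p = 0.000164). Neither gene overlapped between compartments. Of the other ADAMTS genes, Adamts6 read 687.7, 703.4 and 729.4 against 551.0, 503.2 and 484.7, a small separation without overlap that did not pass (−0.43 ± 0.35, limma adjusted p = 0.524). Adamts7 read 628.5, 756.0 and 808.4 against 164.8, 455.1 and 669.1 (−0.87 ± 0.49). Adamts10, Adamts16 and Adamts19 had differences of −1.02, −0.89 and −0.60 and did not pass; 140.6 on mesenchyme 1 was the only Adamts19 value above 5.40.

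Adamts18 ran the other way. It read 28.9, 14.3 and 9.53 in mesenchyme and 491.0, 331.4 and 693.3 in urothelium, and every urothelium array was above every mesenchyme array. The log2 difference was 3.09 ± 0.41 (limma adjusted p = 0.000408). The gene was higher in urothelium in all 16 alternatives in which it was tested. Values ran from 1.05 in the mean of its 3 probe sets to 4.84 with a pseudocount of 1. The alternative with every probe set tested by itself read the same probe set, so its difference was 3.09 again. Its other probe sets were dim, with mean signals of 58.1 and 20.1, and gave 0.14 and −0.07.

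ADAMTS-like proteins bind microfibrils and other matrix without cutting it. Adamtsl1 read 921.3, 1373 and 1780 in mesenchyme and 297.4, 50.5 and 87.5 in urothelium (−3.06 ± 0.53, limma adjusted p = 0.00236). It was the only one of 5 past the test, which 14.7% of all genes passed. Adamtsl3 read 373.9, 243.7 and 333.3 against 96.1, 221.5 and 78.8 (−1.10 ± 0.44, limma adjusted p = 0.147). Adamtsl4 read 170.4, 269.2 and 421.6 against 123.1, 97.9 and 125.2 (−0.98 ± 0.43, limma adjusted p = 0.181) and was past the test with array weights (−1.29). Neither gene overlapped between compartments. Adamtsl2 and Adamtsl5 differed by −0.60 and 0.76, also without overlap and without passing. Of the 42 genes, 20 were higher in mesenchyme and 3 in urothelium without overlap. Of all 18193 genes it was 3307 (18.2%) and 2182 (12.0%). The share of the 42 was thus above that of all genes for mesenchyme and below it for urothelium.

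Of the 4 inhibitors 2, Timp3 and Timp1, were higher in mesenchyme, and Timp2 and Timp4 were not past the test. Timp3, the matrix-bound inhibitor, had signals of 4517, 2659 and 2215 in mesenchyme and 695.0, 577.0 and 238.5 in urothelium. These groups were well apart (−2.58 ± 0.44, limma adjusted p = 0.00219), and its other 3 probe sets gave −2.33, −1.79 and −0.88. Timp1, a soluble inhibitor known to be induced by growth factors, read 1801, 1869 and 2456 against 170.2, 422.2 and 857.6 (−2.20 ± 0.50, limma adjusted p = 0.0115). Its lowest mesenchyme array was above its highest urothelium array, but the call was lost without mesenchyme 4 (−2.06), which left 1 of the 4 inhibitors past the test.

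Timp2, the inhibitor that bridges Mmp14 and the precursor of Mmp2, was bright in both compartments. It read 31396, 17841 and 16169 in mesenchyme and 14430, 12254 and 10655 in urothelium, without overlap but with mesenchyme 1 far above the others. The log2 difference of −0.75 ± 0.30 did not pass (limma adjusted p = 0.142), and all 6 of its probe sets had a negative difference, from −0.58 to −1.29. The mean of these probe sets passed the test (−0.84). Timp4 was dim, with 78.3, 76.8 and 139.8 in mesenchyme and 123.9, 185.4 and 188.8 in urothelium, and its groups overlapped (0.57 ± 0.39, limma adjusted p = 0.429).

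Proteases and inhibitors were then set side by side. Of the 33 Mmp and Adamts genes 11 were higher in mesenchyme and 2 in urothelium, with a median difference of −0.74. The 18 Mmp genes gave 4 and 1 with a median of −0.22, and the 15 Adamts genes 7 and 1 with −1.02. Of the 4 Timp genes 2 and 0 were higher, with a median of −1.48. Over all genes the shares were 8.99% and 5.75%, with a median of −0.11. Whether these shares differ was not tested. For 4 known pairs of protease and inhibitor, chosen with their values known, the log2 ratio of their signals was compared between compartments array by array. The ratio of Mmp2 to Timp2 was lower in urothelium by a log2 difference of −3.66, against SDs of 0.52 and 0.56 between arrays of mesenchyme and urothelium, with no overlap. The exact two-sided permutation p was 0.1, the smallest that 3 arrays against 3 allow, and 0.4 after adjustment over the 4 pairs. The compartments overlapped for the other pairs, whose differences were −0.70 for Mmp9 and Timp1 (SDs 0.49 and 1.36, exact permutation p = 0.6), −0.47 for Mmp14 and Timp2 (SDs 1.20 and 1.34, exact permutation p = 0.6) and −0.57 for Adamts4 and Timp3 (SDs 0.64 and 0.21, exact permutation p = 0.3). Adjusted over the 4 pairs the p of these 3 was 0.6 each. With 1 array left out, the difference for Mmp2 and Timp2 ranged from −3.96 to −3.35. That for Mmp9 and Timp1 was −0.05 without urothelium 8 and −1.41 without urothelium 5. The sign for Adamts4 and Timp3 turned with a pseudocount of 179 (0.31). That for Mmp14 and Timp2 turned without mesenchyme 2 (0.10) or urothelium 5 (0.27). Such a ratio says how unequally the signals of 2 genes differed, not how much protein of each is present.

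Genes with several probe sets did not always give 1 answer. Of the 16 genes past the test, 10 had more than 1 probe set, and for 3 of them (Mmp2, Mmp9 and Timp3) another probe set also passed in the same direction when all 34945 probe sets were tested. For the other 7 the remaining probe sets did not pass. They were dimmer by design, since the brightest probe set was taken for each gene, and why they did not pass was not tested. Adamts9 is an example: its brightest probe set had a mean signal of 6067 and a difference of −3.27, and the others had 307.9 and 58.9 and differed by −0.54 and −0.11. No gene had probe sets past the test in opposite directions. The mean over the probe sets of a gene moved the difference by over 1.5 times for 6 of the 10, all of which stayed past the test: −1.97 for Adamts3, −1.31 for Adamts9, −1.61 for Adamts12, 1.05 for Adamts18, −1.52 for Adamtsl1 and −1.13 for Mmp16.

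**Figure D4:**
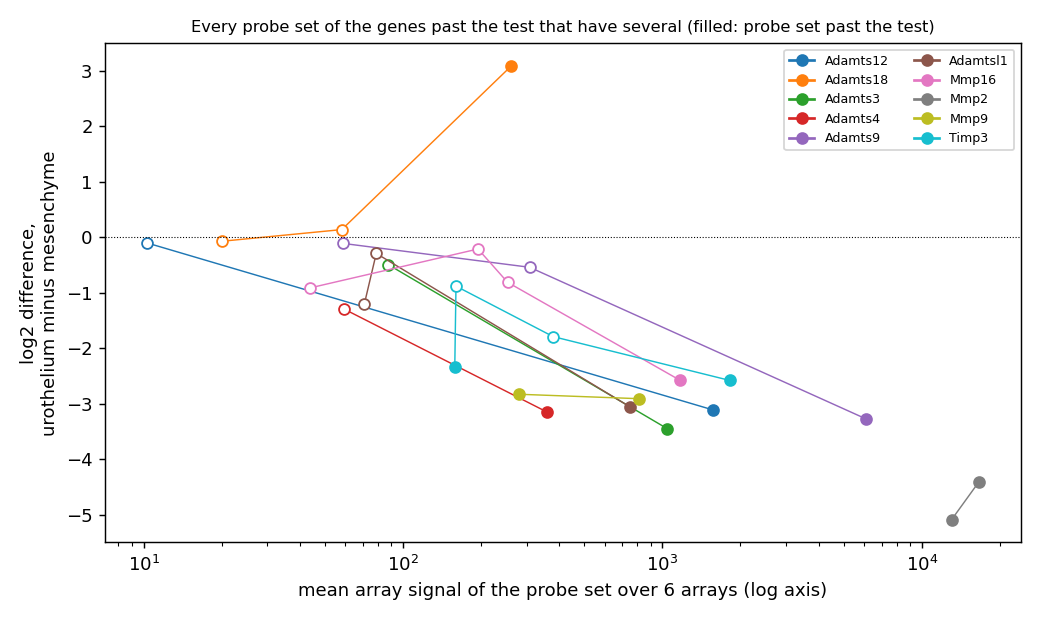
Log2 difference (y axis, urothelium minus mesenchyme) against mean array signal over 6 arrays (x axis, log scale) for every probe set of the 10 genes past the test that have several; filled circles passed the test over all probe sets and lines join probe sets of a gene. In Mmp2, Mmp9 and Timp3 more than 1 probe set is filled, and in the other 7 genes only the brightest, the one taken for the gene, is.

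Other genes of pericellular proteolysis were compared through lists of activators, inhibitors, related proteases and substrates. For each list the shares over all genes were 8.99% higher in mesenchyme and 5.75% higher in urothelium. The lists are small, and whether their shares differ from these was not tested. Of 11 measured activation and surface protease genes 3 were higher in mesenchyme and 0 in urothelium (median −0.46). Fap, a serine protease of activated fibroblasts, read 3014, 5502 and 3349 in mesenchyme and 175.1, 185.1 and 43.1 in urothelium (−4.55 ± 0.46, limma adjusted p = 6.88e-05). Plat, the tissue plasminogen activator gene, also made by endothelium, read 9201, 4231 and 6690 against 344.6, 257.8 and 492.6 (−4.01 ± 0.38, limma adjusted p = 4.13e-05). Pcsk5, a convertase of the furin family, differed by −2.49 ± 0.50. None of the 3 overlapped between compartments. Furin itself, which activates Mmp11 and the membrane-type enzymes, read 738.6, 912.8 and 924.2 against 489.1, 537.0 and 532.7 and did not pass (−0.67 ± 0.35, limma adjusted p = 0.273).

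Of 9 measured genes in a list of inhibitors other than TIMPs and of serpins, 3 were higher in mesenchyme and 1 in urothelium (median −1.43). A serpin is listed here as a member of that family, whether or not it inhibits a protease. Reck, a membrane-anchored inhibitor of metalloproteases, read 9862, 7599 and 9538 in mesenchyme and 816.1, 1326 and 945.3 in urothelium (−3.09 ± 0.29, limma adjusted p = 4.03e-05). The serpin genes Serping1 and Serpinf1 differed by −4.11 ± 0.33 and −3.31 ± 0.45. Serpinb5 (maspin), a serpin of epithelial cells, was the member higher in urothelium, with 203.6, 85.0 and 106.3 against 927.8, 1429 and 1256 (2.86 ± 0.42, limma adjusted p = 0.000878). Every one of these 4 genes was without overlap.

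The ADAM genes, membrane-bound relatives of which several but not all shed surface proteins, were split: mesenchyme was higher for 3 of 11 and urothelium for 2 (median −0.45). Adam12 and Adam19 differed by −4.28 ± 0.38 and −3.86 ± 0.34, and Adam23 by −1.51 ± 0.40. Adam28 read 17.2, 2.65 and 6.84 in mesenchyme and 194.7, 408.6 and 200.2 in urothelium (2.48 ± 0.38, limma adjusted p = 0.0011). Adam10, the sheddase of Notch, read 14488, 18424 and 20890 against 32158, 31844 and 32236, a tight group in urothelium (0.85 ± 0.25, limma adjusted p = 0.0411). The count in urothelium was 1 without any single array, after quantile normalization and in several other alternatives, and without both mesenchyme 1 and urothelium 5 it was 2.

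Of 5 procollagen C-proteinase and enhancer genes 2 were higher in mesenchyme and 0 in urothelium (median −1.13), and both encode enhancers: Pcolce (−4.05 ± 0.27) and Pcolce2 (−1.59 ± 0.33). That count was 1 with arrays centred on their medians or with only genes above the median mean signal. Among 6 cysteine cathepsins 2 were higher in mesenchyme (median −0.80). These were Ctsk (−3.72 ± 0.39) and Ctss (−3.21 ± 0.47), which are known from osteoclasts and macrophages. The macrophage list given above moved the same way, as did the mesenchymal, endothelial and smooth muscle lists. Acp5 of bone-resorbing cells did not pass (−0.59, limma adjusted p = 0.455). The part of any of these cells in these values was not tested. With array weights the count of cathepsins higher in mesenchyme was 4.

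Of 13 measured substrates 8 were higher in mesenchyme and 0 in urothelium (median −3.44), led by Vwf, the target of another ADAMTS enzyme and itself an endothelial marker (−5.78 ± 0.51), Col1a2 (−5.28 ± 0.45) and Col1a1 (−4.94 ± 0.30). Of these 8, Col1a1 and Col3a1 were also in the mesenchymal marker list. Vcan, which encodes versican, the substrate of Adamts9 and Adamts20, was not among the 8. It read 27178, 27118 and 33743 in mesenchyme and 22813, 26319 and 19991 in urothelium (−0.35 ± 0.25, limma adjusted p = 0.447). Every mesenchyme array was above every urothelium array, by a margin that did not pass the test.

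**Figure D5:**
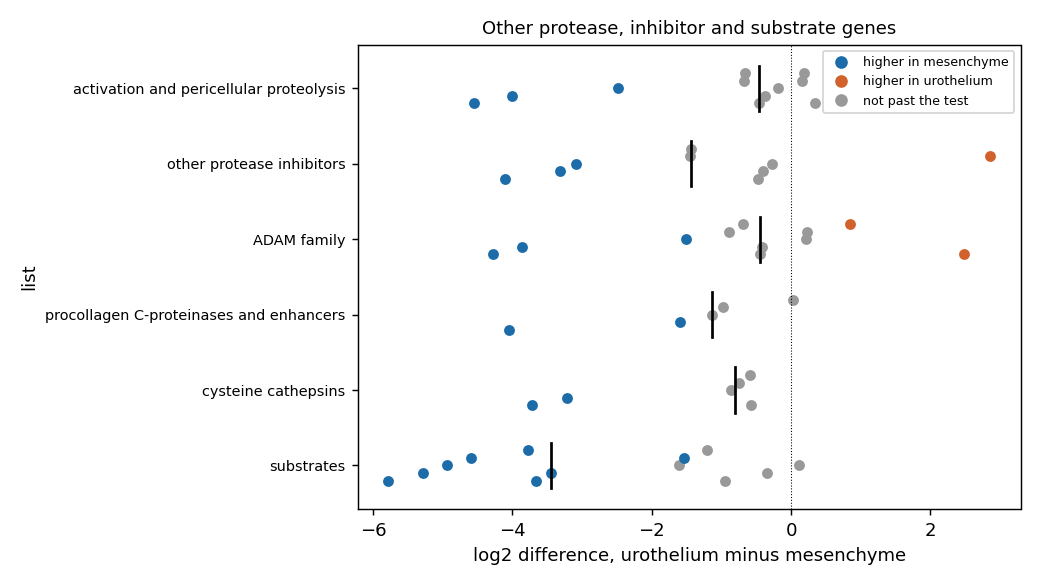
Log2 difference (x axis, urothelium minus mesenchyme) of each measured gene in 6 lists of other protease, inhibitor and substrate genes; each point is a gene, vertical bars are list medians, and vertical offsets within a list only separate points. The median of the substrate list is −3.44, and 2 ADAM genes and 1 serpin gene lie past the test towards urothelium (orange).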

How the data were processed

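RNA from mesenchyme and urothelium was read on Affymetrix arrays. The authors deposited linear array intensity for 45101 probe sets. The submitters' processing notes name GCOS, with algorithm and settings not given in the sources used here. On each array the 2% trimmed mean was 1500, so no further scaling was applied; this would hide a difference in total RNA. Probe sets were named through the platform annotation: 34945 had 1 symbol, 932 several and 9160 none, and 64 controls were left out. No detection calls were used, so a low signal is not called absent. For each of 18193 genes the probe set of highest mean signal was taken, without a filter on low values.

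Tests used log2(signal + 45), the added 45 being the 25th percentile over all arrays; this understates differences of dim genes. limma 3.58.1 in R 4.3.3 (lmFit, eBayes with trend) compared the compartments over all 6 arrays, with Benjamini-Hochberg adjustment over all genes at 0.05. The fit was tested on simulated data. The labels' replicate numbers are not shared between compartments and give no pairing or batch, and no 2 arrays held identical values. Per-array values are given for every gene of the families past the test, all TIMP genes and the 2 brightest others of each role class; genes of the other lists are named where they passed, at most 3 per direction, with Furin and Vcan added after their values were seen. Motif searches used RefSeq promoter windows. The genes and lists were chosen with earlier results of these data known. The protease and inhibitor pairs, the chromosome 9 group, the motif search and the choice of probe set by mean log2 signal were added after the values were seen. Alternatives were pseudocounts of 1 and 179, quantile normalization, median centring, a filter on dim genes, no trend, array weights, other probe set choices, and leaving out arrays.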

Additional observations from a re-analysis of the deposited data

How the results depend on the processing

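The 14 genes counted as higher in mesenchyme numbered 11 to 19 over the alternatives and 12 to 15 when 1 array was left out. The 19 came with array weights, where the genes past the test rose from 2683 to 5107 over all 18193 genes. The 11 came with dim genes left out, where 17 of the 42 genes were tested. The 2 higher in urothelium numbered 1 to 2 when 1 array was left out, and 1 when dim genes were left out (which tests 17 of the 42 genes), without the intensity trend or with every probe set tested by itself. The Mmp genes higher in urothelium were 1, but 0 without the intensity trend or with every probe set tested by itself, and 0 to 1 with 1 array left out. The Adamts genes higher in urothelium were 0 with dim genes left out, where Adamts18 was not tested. The Adamtsl genes higher in mesenchyme were 2 with array weights, and the Timp genes 1 to 2 with 1 array left out.

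None of the 16 genes past the test changed sign in an alternative that was run. With every probe set tested by itself the sign could not change, because the probe set already chosen for the gene was read. Another probe set of Adamts18 gave −0.07, opposite to its call. Among the named genes not past it, the sign turned for Adamts1 with median centring (0.21), array weights (0.04), and without mesenchyme 1 (0.16) or urothelium 8 (0.01). Mmp1a turned with a pseudocount of 179 (−0.00023) and Mmp3 with pseudocounts of 1 (−1.3e-06) and 179 (−0.00034). Leaving out mesenchyme 2 gave Mmp1a −0.15 and Mmp3 −0.11, and leaving out mesenchyme 4 gave −0.16 and −0.14, with Mmp8 at −0.22, Mmp10 at −0.29 and Mmp20 at −0.05. Mmp3 was −0.23 without urothelium 7. Mmp12 was 0.18 with median centring, 0.06 with array weights, 0.09 without mesenchyme 1 and 0.16 without mesenchyme 1 and urothelium 5. Mmp24 was 0.10 with array weights and 0.17 without mesenchyme 1 and urothelium 5. The ratio of Mmp14 to Timp2 turned without mesenchyme 2 (0.10) or urothelium 5 (0.27), and that of Adamts4 to Timp3 with a pseudocount of 179 (0.31). With 1 array left out these values ranged, in log2 units, as follows: Adamts1 −0.38 to 0.16, Mmp10 −0.29 to 0.66, Mmp12 −0.37 to 0.09, Mmp1a −0.16 to 0.60, Mmp20 −0.05 to 0.63, Mmp24 −0.87 to −0.04, Mmp3 −0.23 to 0.25, Mmp8 −0.22 to 0.63, Adamts4 to Timp3 (ratio) −0.94 to −0.36 and Mmp14 to Timp2 (ratio) −1.10 to 0.27. The causes of these changes were not tested. Signals under about 200 may limit what can be seen, and 15 of the 42 genes lie there, although Pcolce2, under 200 on every array, passed the test. No paired analysis was possible because the compartments share no replicate number.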
